A study of Mus musculus with 7 samples.

Results

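The genes described here are 8 genes of the sympathetic and glial derivatives of the neural crest, read in cultured mouse kidney rudiments: Phox2a, Th, Dbh, Isl1, Sox10, Elavl4, Tubb3 and Stmn2. They were chosen by name, and each of the 8 symbols had 1 entry among the 23235 gene symbols of the deposited tables. All 8 were among the 13469 genes with a mean of at least 1 FPKM that were tested, where FPKM counts fragments per kilobase of transcript after scaling for the depth of a library. In brief, 7 of the 8 varied together between the libraries over a range far wider than that of most genes, none differed between the genotypes past the test's threshold, and Elavl4 did not follow the others. Relative to Phox2a, the levels of Isl1, Sox10, Tubb3 and Stmn2 were higher in every E2-2 deleted library than in any E2-2 wildtype library. So were those of 10.7% of the other genes with the same highest and lowest libraries. With both genes of a ratio at the ends of their 95% Poisson intervals all 4 ratios overlapped. Such joint bounds are wider than a 95% interval of a ratio, which was not computed.

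Neural crest cells leave the dorsal neural tube and settle along the aorta as sympathetic ganglia and, in the adrenal medulla, as chromaffin cells. Sympathetic precursors switch on the Phox2 homeodomain factors, then the enzymes that make noradrenaline, and general neuronal genes beside them, while cells that keep Sox10 become Schwann and satellite glia. Kidneys are innervated by sympathetic axons, whose cell bodies lie in ganglia outside the organ, and a dissected rudiment can carry such ganglion cells with it.

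Transcripts of 7 cultured fetal mouse kidneys of strain C57BL/6 were sequenced: 3 E2-2 deleted and 4 E2-2 wildtype, all with beta-catenin activated as well, so that no library had unmodified beta-catenin. E2-2, the product of Tcf4, belongs to the E proteins, basic helix-loop-helix factors that pair with tissue-specific partners, and beta-catenin carries the canonical Wnt signal. Dissection took place at 10.5 days post coitum and the kidneys were kept in culture for 3 to 4 days, in medium with transferrin and insulin at 5 ug/mL each and selenium at 5 ng/mL. Pregnant mice had received tamoxifen, 2 mg per 40 g of body weight, at 10.5 days post coitum. The labels give neither the Cre line that tamoxifen acted on and its promoter, nor the culture time of each library, nor whether libraries came from separate animals, so each p-value reflects the spread between these libraries alone, which may be technical. Replicates are numbered in the order of deposit. Deposited names begin with BI for E2-2 deleted replicates 1 and 2 and E2-2 wildtype replicates 1 and 2, and with BM for E2-2 deleted replicate 3 and E2-2 wildtype replicates 3 and 4. What the prefix stands for is not given, so differences are also shown within each prefix, where BM holds 1 deleted library.

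Promoter windows of the noradrenaline genes are shown because Phox2a, Th and Dbh had the same order of libraries, and because E proteins such as E2-2 bind the E-box, CANNTG. Each is the 250 bases before the RefSeq transcription start in GRCm38.p6, 5′ to 3′ on the gene's strand, with capitals for matches to the motifs searched on both strands: CANNTG, its forms CAGCTG and CACCTG, the palindromic site of paired homeodomains, the cyclic AMP response element TGACGTCA, the TCF/LEF motif CTTTGA and the Sox motif ACAAAG.
Phox2a (chr7:101818063-101818312, plus strand): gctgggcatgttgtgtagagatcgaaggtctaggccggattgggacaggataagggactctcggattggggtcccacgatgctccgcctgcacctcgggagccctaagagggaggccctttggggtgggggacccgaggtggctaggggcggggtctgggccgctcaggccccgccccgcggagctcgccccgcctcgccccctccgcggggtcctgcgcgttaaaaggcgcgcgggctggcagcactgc
Th (chr7:142899996-142900245, minus strand): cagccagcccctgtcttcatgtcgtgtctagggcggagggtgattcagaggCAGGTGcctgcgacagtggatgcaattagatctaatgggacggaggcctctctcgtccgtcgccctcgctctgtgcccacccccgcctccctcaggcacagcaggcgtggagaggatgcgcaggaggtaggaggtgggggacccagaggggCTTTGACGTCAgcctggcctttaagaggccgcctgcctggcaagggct
Dbh (chr2:27165257-27165506, plus strand): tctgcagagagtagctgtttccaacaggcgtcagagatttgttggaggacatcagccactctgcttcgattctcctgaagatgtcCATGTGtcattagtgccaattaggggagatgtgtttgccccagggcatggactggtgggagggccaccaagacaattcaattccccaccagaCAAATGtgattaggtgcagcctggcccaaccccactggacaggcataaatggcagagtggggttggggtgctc
The Th window had 1 E-box, CAGGTG, 199 bases before the start, which is also CACCTG read on the other strand. Closer to the Th start, CTTTGA at 48 bases and TGACGTCA at 45 bases overlapped. In the Dbh window there were 2 E-boxes, CATGTG at 165 bases and CAAATG at 73 bases, and the Phox2a window held no match to any motif searched. Of the 32851 mouse promoter windows in the same table, 66.2% held CANNTG, 17.2% CACCTG, 13.8% CTTTGA and 1.55% TGACGTCA, so an E-box is found in most windows and the cyclic AMP element in few. Of the 8 genes, 6 had a window in the table. The Isl1 window (chromosome 13, 116309689 to 116309938, minus strand) had CAGCTG at 103 bases, in 13% of all windows, the Tubb3 window had no match, and of the 4 windows of Elavl4 3 had at least 1 E-box. A match is a description of the letters and not a binding site.

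Of the series as a whole, depth was inferred at 17.7 to 24.9 mega-fragments (M) in E2-2 deleted libraries and 14.6 to 26.6 M in E2-2 wildtype libraries. Tcf4, the targeted gene, was at 33.5, 41.7 and 42.0 FPKM in E2-2 deleted replicates 1 to 3, against 48.8, 58.1, 28.7 and 39.2 FPKM in E2-2 wildtype replicates 1 to 4. Its groups overlapped (log2 difference -0.12, SE 0.23, limma adjusted p = 0.884), and a whole-gene value does not check a deletion of unstated exons. E2-2 deleted replicate 2 stood apart in kidney genes: the 10 genes of the nephron progenitor list summed to 122 FPKM there, against 296 and 393 FPKM in the other deleted libraries and 210 to 446 FPKM in the wildtype libraries. In all, 0 of 13469 genes passed the limma adjusted p threshold of 0.05, and 605 had an unadjusted p under 0.05.

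Phox2a, Th and Dbh, the genes of the noradrenergic identity, were present in both genotypes at levels that overlapped throughout. Phox2a (chromosome 7, 108966827 to 108971240 in the deposited tables), a homeodomain factor needed for autonomic neurons, was at 0.879, 2.60 and 7.0 FPKM in E2-2 deleted replicates 1 to 3, against 7.83, 3.67, 1.85 and 1.00 FPKM in E2-2 wildtype replicates 1 to 4. Th (chromosome 7, 150078681 to 150085871), tyrosine hydroxylase, catalyses the rate-limiting step of catecholamine synthesis. Its levels were 0.177, 2.18 and 4.07 FPKM in the deleted libraries, against 5.61, 2.81, 1.65 and 0.850 FPKM in the wildtype libraries. Dbh (chromosome 2, 27021027 to 27038724), dopamine beta-hydroxylase, turns dopamine into noradrenaline. It was at 1.13, 7.75 and 21.8 FPKM in the deleted libraries, against 23.1, 9.0, 3.47 and 1.90 FPKM in the wildtype libraries. For each of the 3 genes deleted replicate 3 and wildtype replicate 1 were the highest libraries and deleted replicate 1 was the lowest, below wildtype replicates 3 and 4.

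The low values rest on few fragments. Th in deleted replicate 1 corresponded to 6 inferred fragments, with a 95% Poisson interval of 0.0649 to 0.385 FPKM, and in wildtype replicate 4 to 30 fragments (0.574 to 1.21 FPKM). These intervals cover counting error only, and they do not overlap. Phox2a corresponded to 26 fragments in deleted replicate 1 and 31 in wildtype replicate 4, where the intervals of 0.574 to 1.29 and 0.682 to 1.42 FPKM overlap, so their order is not resolved at this depth. By contrast Dbh had 51 fragments in deleted replicate 1, its lowest library. Phox2a shares 95 bases with Inppl1, a lipid phosphatase gene whose level was 31.7 to 35.3 FPKM in the deleted and 31.9 to 46.1 FPKM in the wildtype libraries. Whether the authors' counting used strand is not stated, so fragments in those bases cannot be told apart.

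Isl1 and Sox10, a neuronal and a glial factor, shared most of that order. Isl1 (chromosome 13, 117088478 to 117099896), a LIM homeodomain factor of sympathetic, sensory and motor neurons, was at 3.54, 5.91 and 12.0 FPKM in E2-2 deleted libraries, against 8.88, 4.95, 2.03 and 1.38 FPKM in E2-2 wildtype libraries. All 3 deleted values lay above wildtype replicates 3 and 4 and only that of deleted replicate 3 lay above wildtype replicate 1. Sox10 (chromosome 15, 78985343 to 78994920), an HMG-box factor of migrating crest and of peripheral glia, was at 0.736, 1.60 and 3.96 FPKM in the deleted libraries, against 2.36, 1.24, 0.182 and 0.245 FPKM in the wildtype libraries. Wildtype replicates 3 and 4 held 12 and 14 inferred fragments of Sox10, at 0.0941 to 0.318 and 0.134 to 0.411 FPKM (95% Poisson intervals), so these libraries were near the floor of detection and their own order is not resolved. Deleted replicate 1, the lowest of the deleted libraries, held 40.

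The neuronal genes Tubb3 and Stmn2 were the most abundant of the 8. Tubb3 (chromosome 8, 125935464 to 125945910), the beta-tubulin of neurons, was at 11.8, 30.9 and 66.8 FPKM in the deleted libraries, against 52.9, 26.3, 10.8 and 6.95 FPKM in the wildtype libraries. Stmn2 (chromosome 3, 8509527 to 8561604), a stathmin that regulates microtubules in growing axons, was at 9.77, 27.2 and 79.6 FPKM in the deleted libraries, against 53.6, 25.6, 7.85 and 5.51 FPKM in the wildtype libraries. Deleted replicate 3 and wildtype replicate 1 were again highest, deleted replicate 2 and wildtype replicate 2 were in the middle, and the other 3 libraries were lowest. Elavl4 (chromosome 4, 109876342 to 110024516), a neuronal RNA-binding protein of the Hu family, had another pattern. Its levels were 7.91, 2.64 and 9.23 FPKM in the deleted libraries, against 10.2, 6.57, 5.22 and 9.62 FPKM in the wildtype libraries. Here deleted replicate 2 was the lowest library, and deleted replicate 1 and wildtype replicate 4, low for the other 7 genes, ranked 4 and 2. Its entry covers 3 transcription starts, the only one of the 8 with more than 1.

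**Figure D1:**
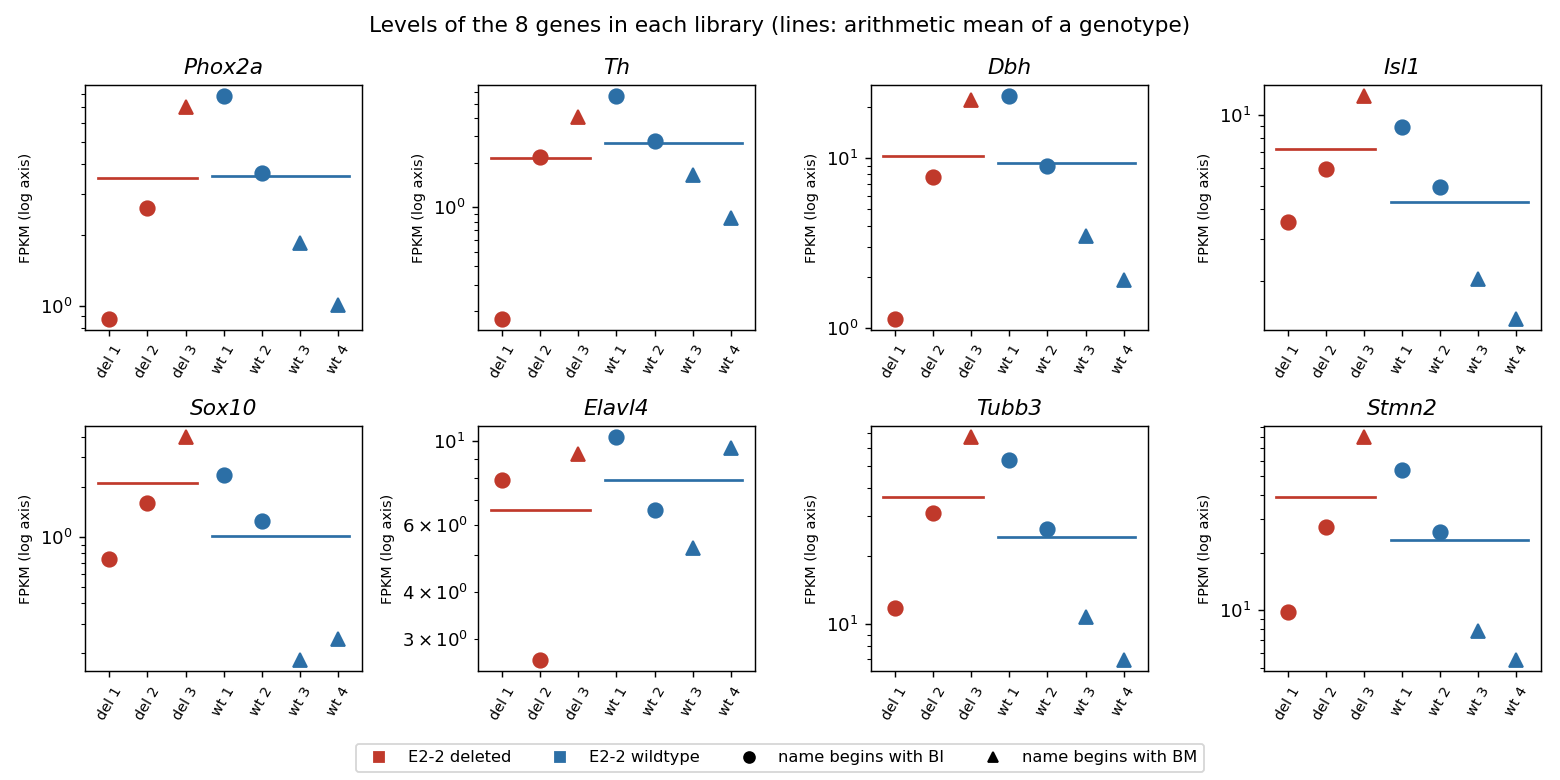
FPKM (log axis) of the 8 genes in the 3 E2-2 deleted libraries (red) and the 4 E2-2 wildtype libraries (blue), circles for names beginning with BI and triangles for BM, lines at the arithmetic mean of each genotype. Deleted replicate 3 and wildtype replicate 1 are the highest libraries in every panel but that of Elavl4, and the genotypes overlap in all 8 panels.

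In no gene of the 8 did the genotypes differ by more than the spread between libraries. The count past the limma adjusted p threshold of 0.05 was 0 of 8, where 0% of all genes tested passed, and 0 of 8 had an unadjusted p under 0.05, against 4.49% of all genes. None of the 8 had every deleted library above every wildtype library (2.84% of all genes) or every deleted library below (2.05%). Differences, deleted minus wildtype on the log2(FPKM + 1) scale, were positive for 5 genes and negative for 3, with a median of 0.32, against 39.3% positive and a median of -0.05 over all genes.

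Mean levels of the noradrenergic genes were close, with wide intervals. Phox2a averaged 3.49 ± 3.16 FPKM in deleted libraries (SD, n = 3) and 3.59 ± 3.04 FPKM in wildtype libraries (SD, n = 4), a log2 difference of -0.05 (SE 0.61, interval of 95% confidence from -1.47 to 1.37; limma adjusted p = 0.981 and exact permutation p = 0.943). Th averaged 2.14 ± 1.95 and 2.73 ± 2.08 FPKM in deleted and wildtype libraries, a log2 difference of -0.32 (SE 0.57, -1.65 to 1.01; limma adjusted p = 0.873). Dbh averaged 10.2 ± 10.6 and 9.36 ± 9.64 FPKM in deleted and wildtype libraries, a log2 difference of 0.01 (SE 0.93, -2.15 to 2.16; limma adjusted p = 0.997). The interval of Dbh holds log2 differences of 2 in either direction, so a change of that size could not be seen with these libraries. In bulk samples, fewer cells of a type and less RNA per cell cannot be told apart.

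Besides Dbh, 4 genes had a higher mean in deleted libraries, without passing the test. Isl1 averaged 7.15 ± 4.37 and 4.31 ± 3.42 FPKM in deleted and wildtype libraries (log2 difference 0.71, SE 0.54, interval -0.55 to 1.97; limma adjusted p = 0.795). Sox10 averaged 2.10 ± 1.67 and 1.01 ± 1.02 FPKM in deleted and wildtype libraries (0.63, SE 0.48, -0.48 to 1.73; limma adjusted p = 0.795). Exact permutation p was 0.314 for both genes, where the smallest p that the test can give is 0.0286. The axonal genes had larger means and larger spreads. Tubb3 averaged 36.5 ± 27.9 and 24.2 ± 20.9 FPKM in deleted and wildtype libraries (0.65, SE 0.75, -1.10 to 2.40; limma adjusted p = 0.821). Stmn2 averaged 38.8 ± 36.3 and 23.1 ± 22.2 FPKM in deleted and wildtype libraries (0.77, SE 0.88, -1.27 to 2.82; limma adjusted p = 0.819). Elavl4 was at 6.59 ± 3.49 and 7.91 ± 2.41 FPKM in deleted and wildtype libraries, a log2 difference of -0.32 (SE 0.38, -1.20 to 0.56; limma adjusted p = 0.821), and the narrowest interval of the 8.

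Within the name prefixes the sign was opposite for all 8 genes. Each was lower in deleted than in wildtype libraries within BI and higher within BM, a combination of signs found in 30.1% of all genes tested. The log2 difference was -1.30 within BI and 1.74 within BM for Phox2a, -1.38 and 1.20 for Th, and -1.85 and 2.66 for Dbh. For these 3 genes both deleted BI libraries lay below both wildtype BI libraries and the deleted BM library lay above both wildtype BM libraries, which held for 6.31% of all genes. Within BI this order rests on point values, since the 95% Poisson intervals of deleted replicate 2 and wildtype replicate 2 overlapped for each gene. Isl1 (-0.45 within BI, 2.27 within BM), Sox10 (-0.37 and 2.03), Tubb3 (-0.93 and 2.81) and Stmn2 (-1.13 and 3.41) had the same signs with overlapping BI groups. Elavl4 moved least, with -0.69 and 0.33. Since BM has 1 deleted library and that library is the highest or the second highest for 7 of the 8, a difference between the prefixes and a difference of that library cannot be told apart.

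**Figure D2:**
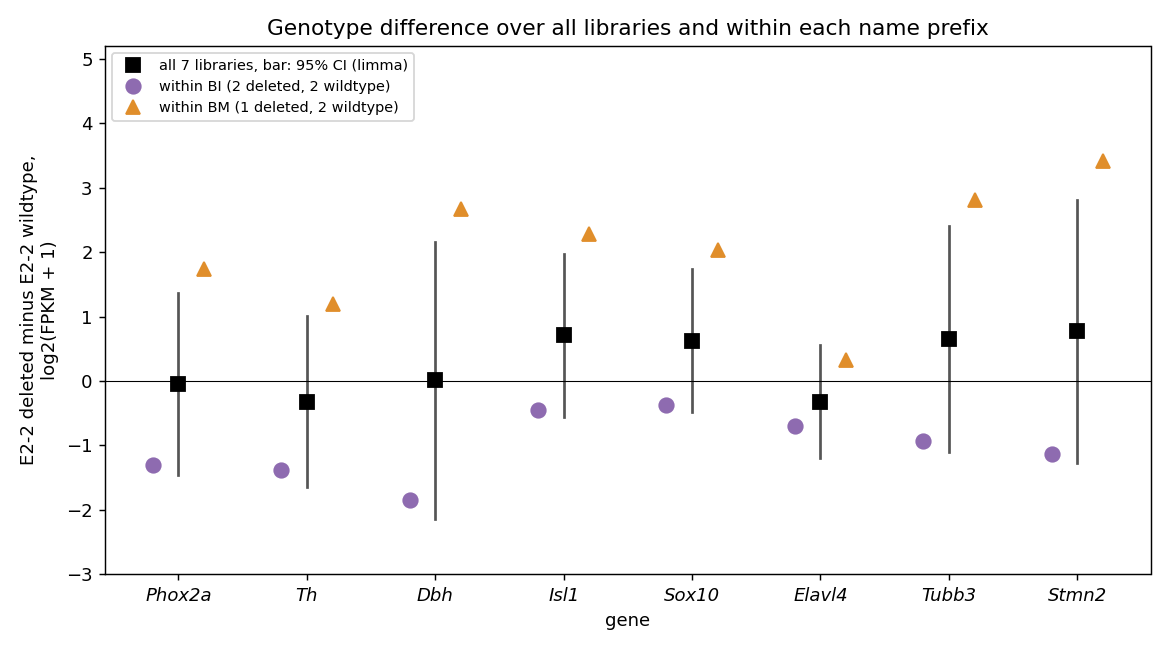
Difference of E2-2 deleted minus E2-2 wildtype, in log2(FPKM + 1), for each of the 8 genes: squares over all 7 libraries with the 95% confidence interval of limma, circles within BI, triangles within BM. All circles lie below 0 and all triangles above it, and every interval includes 0.

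The spread between libraries was wide against that of other genes. Between the lowest and the highest library, log2(FPKM + 1) ranged over 2.23 for Phox2a, 2.49 for Th, 3.50 for Dbh, 2.45 for Isl1, 2.07 for Sox10, 3.09 for Tubb3 and 3.63 for Stmn2. Those 7 lay above the 95th percentile of all genes tested, which was 2.00, and the median of all genes was 0.62. Elavl4, at 1.63, lay above the 90th percentile of 1.53. As a ratio of FPKM, the highest library exceeded the lowest 8.91-fold for Phox2a, 20.4-fold for Dbh, 9.60-fold for Tubb3 and 14.4-fold for Stmn2, against 3.88-fold for Elavl4.

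For 7 genes deleted replicate 3 and wildtype replicate 1 were the highest 2 libraries, an order read from these genes and shared by 5.91% of all genes tested. Their lowest 3 libraries were deleted replicate 1 and wildtype replicates 3 and 4. Both conditions held together for 7 of 8 genes and for 1.31% of all genes. Phox2a, Th and Dbh ranked all 7 libraries identically, and so did Isl1, Tubb3 and Stmn2. The sequence of the noradrenergic genes differed from that of Isl1, Tubb3 and Stmn2 in the place of deleted replicate 1, ranked 7 for Phox2a, Th and Dbh and 5 for the others, and in the order of neighbouring libraries.

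Over the 7 libraries, the 21 pairs without Elavl4 had a Pearson r of log2(FPKM + 1) between 0.73 and 1.00 (median 0.94) and a Spearman rho between 0.79 and 1. By exact permutation over the 5040 orders of the libraries, with adjustment over 28 pairs, 19 of the 21 had a Pearson p under 0.05 and 9 had a Spearman p under 0.05. With a pseudocount of 0.1 FPKM in place of 1, 15 of the 28 pairs passed by Pearson. The 2 pairs that did not pass by Pearson were Th with Isl1 (r = 0.74, permutation adjusted p = 0.0775) and Th with Sox10 (r = 0.73, permutation adjusted p = 0.0828). Tubb3 and Stmn2, both parts of the axonal microtubule system, had r = 1.00 and rho = 1 (permutation adjusted p = 0.0011 and 0.0019). Phox2a and Dbh had r = 0.99 and rho = 1, and Isl1 and Sox10 had r = 0.98 and rho = 0.96. Without the 2 libraries farthest from the median of the x gene, the 21 values of r were between 0.63 and 1.00. Deviations from each genotype's mean gave r between 0.94 and 1.00, so the co-variation was as large within the genotypes. BI and BM hold 4 and 3 libraries, too few for a correlation within a prefix.

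Elavl4 had low correlations with the other 7 genes. Its 7 pairs had r between 0.05 and 0.22 and rho between 0.14 and 0.29, with permutation adjusted p from 0.87 to 0.927 for r. Without 2 libraries r was between -0.57 and 0.70. The level of Elavl4 relative to Stmn2 was 0.810, 0.0972 and 0.116 in deleted replicates 1 to 3, against 0.191, 0.257, 0.664 and 1.74 in wildtype replicates 1 to 4. Elavl4 was thus near or above Stmn2 in the libraries where the other neuronal genes were lowest.

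**Figure D3:**
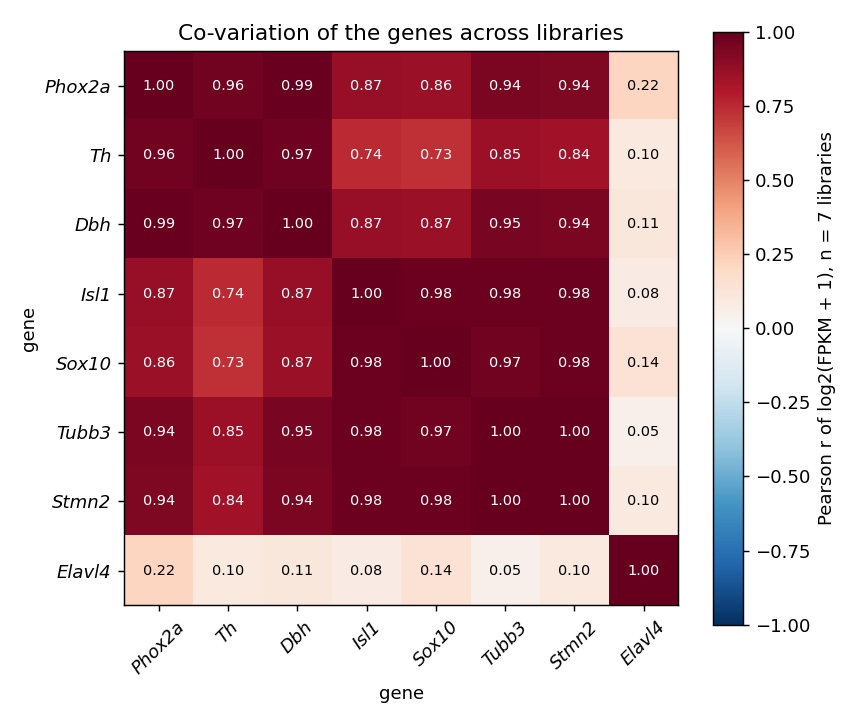
Pearson r of log2(FPKM + 1) over 7 libraries for each pair of the 8 genes, from blue (-1) to red (1). The 7 genes other than Elavl4 form a block with r of at least 0.73, and the row of Elavl4 does not exceed 0.22.

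Point values of 4 ratios to Phox2a did not overlap between the genotypes, where the levels did. The level of Sox10 relative to Phox2a was 0.838, 0.616 and 0.566 in E2-2 deleted replicates 1 to 3, against 0.302, 0.338, 0.0986 and 0.244 in E2-2 wildtype replicates 1 to 4. That of Stmn2 relative to Phox2a was 11.1, 10.5 and 11.4 in deleted libraries, against 6.85, 6.97, 4.25 and 5.50 in wildtype libraries. In both ratios the lowest deleted library stood above the highest wildtype library, although the levels themselves overlapped. Tubb3 relative to Phox2a was at 13.4, 11.9 and 9.54 in deleted libraries, against 6.76, 7.16, 5.85 and 6.93 in wildtype libraries. Isl1 relative to Phox2a was at 4.03, 2.27 and 1.72 in deleted libraries, against 1.13, 1.35, 1.10 and 1.38 in wildtype libraries. So 4 of the 7 other genes were higher relative to Phox2a in every deleted library, and Th, Dbh and Elavl4 were not.

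The mean log2 ratio to Phox2a differed between deleted and wildtype libraries by 1.58 for Sox10, 1.02 for Isl1, 0.93 for Stmn2 and 0.79 for Tubb3, with the same sign within both prefixes (0.48 to 1.87). Of the 13468 tested genes other than Phox2a, 0.601% were higher relative to Phox2a in every deleted library. Most genes do not follow Phox2a between libraries, so a nearer comparison is the 169 genes, other than the 8, with the same highest 2 and lowest 3 libraries: 18 of them, or 10.7%, did so. In the lists described below, it held for 4 of 25 pan-neuronal (16%), 2 of 9 neuroendocrine granule (22.2%) and 1 of 7 sympathetic factor genes (14.3%). It held for 0 of 11 genes of Schwann cells and satellite glia and 0 of 10 of the early crest. The counts were also 0 of 12 for catecholamine genes and 0 of 19 for neurotrophin and GDNF family genes. Isl1, Sox10, Tubb3 and Stmn2 were also higher relative to Th in every deleted library (1.05% of all genes, 20.1% of those 169). Relative to Dbh this held for Sox10 and Stmn2 (0.238% and 2.96%), while the ratios of Isl1 and Tubb3 overlapped. The ratios were examined after the levels had been seen, and they are given as a description without a test.

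Counting error matters for the libraries in which Phox2a was low. With both genes of a ratio at the ends of their 95% Poisson intervals that bring the genotypes closest, the lowest deleted ratio of Sox10 would be 0.378 and the highest wildtype ratio 0.604. For Stmn2 the same bounds would give 6.83 and 9.56, for Tubb3 8.08 and 11.6, and for Isl1 1.40 and 2.55, so all 4 ratios overlap at these joint bounds. Joint bounds of this kind are wider than a 95% interval of a ratio, which was not computed. With Phox2a alone at its bounds, Isl1, Tubb3 and Stmn2 would overlap as well, and Sox10 would stand at 0.484 and 0.429. Within the noradrenergic genes, Dbh relative to Th was at 6.39, 3.56 and 5.37 in deleted libraries, against 4.11, 3.20, 2.11 and 2.24 in wildtype libraries. These groups overlapped, and the value of deleted replicate 1 rests on the 6 fragments of Th.

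**Figure D4:**
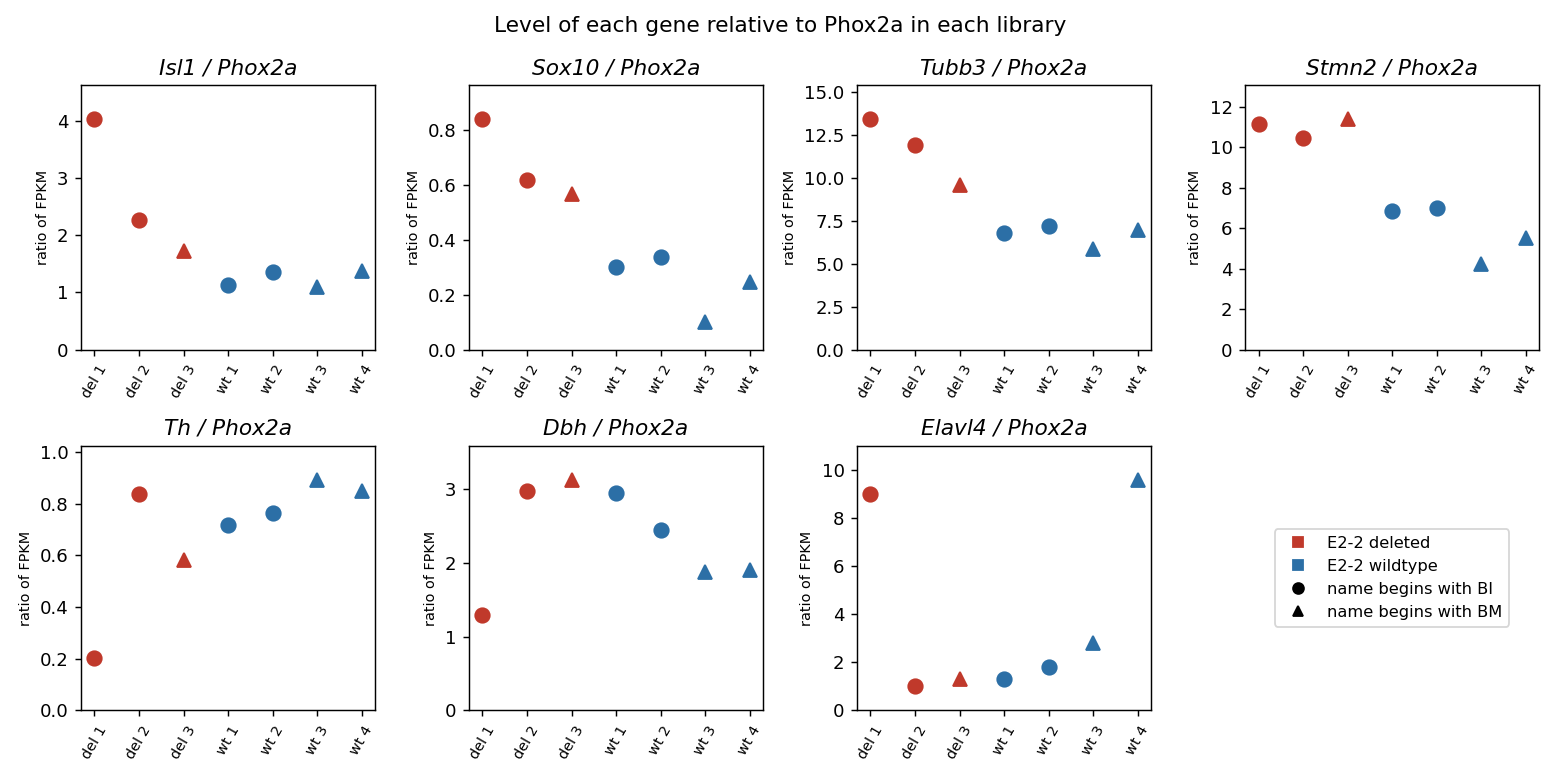
FPKM of 7 genes divided by the FPKM of Phox2a in each library (linear axes from 0), E2-2 deleted in red and E2-2 wildtype in blue, circles for BI and triangles for BM. In the 4 upper panels (Isl1, Sox10, Tubb3, Stmn2) every deleted library lies above every wildtype library, and in the lower panels (Th, Dbh, Elavl4) the genotypes overlap.

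Other genes of the same programmes were read from 7 lists, chosen for their known roles, with 110 genes in the tables, of which 90 were tested. None passed the limma adjusted p threshold (0% of all genes), and 7 had an unadjusted p under 0.05, against 4.49% of all genes. Of the differences, 62 were positive and 28 negative (median 0.18), against 39.3% positive and a median of -0.05 over all genes. For 39 of the 90 (43.3%, against 5.91% of all genes) deleted replicate 3 and wildtype replicate 1 were the highest 2 libraries. Of 25 tested pan-neuronal genes, 19 had that order and 22 were negative within BI and positive within BM, against 30.1% of all genes for these signs. The median difference of the list was 0.27 (-0.67 within BI, 1.67 within BM). That median turned to -0.11 without deleted replicate 3 and was 0.70 without deleted replicate 1. Prph, the intermediate filament of peripheral neurons, was at 10.1, 31.9 and 58.1 FPKM in deleted libraries, against 52.1, 20.6, 6.51 and 5.31 FPKM in wildtype libraries. Mab21l1, of the Mab21 family, had the smallest p of the list: 5.28, 16.0 and 10.9 FPKM in deleted libraries, against 6.15, 7.36, 3.36 and 2.19 FPKM in wildtype libraries (log2 difference 1.01, limma adjusted p = 0.795). The other pan-neuronal genes of smallest p were Crmp1, Syt1 and Elavl2, with log2 differences of 0.62, 0.65 and 0.56.

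The sympathetic transcription factors did not move as 1 group. Hand1, a bHLH factor of sympathetic neurons, had deleted replicate 3 and wildtype replicate 1 as its highest 2 libraries, at 0.244 to 2.45 FPKM in deleted and 0.312 to 3.86 FPKM in wildtype libraries. Gata2, Gata3, Sox4 and Sox11, factors with wide expression outside ganglia, and Hand2 did not have that order. Gata2 had the smallest p, at 21.3, 44.96 and 22.9 FPKM in deleted libraries, against 20.9, 21.5, 10.7 and 11.3 FPKM in wildtype libraries (log2 difference 0.83, limma adjusted p = 0.795). Hand2, a bHLH partner of E proteins in sympathetic neurons, was at 1.84, 12.3 and 11.4 FPKM in deleted libraries, against 8.91, 3.55, 2.80 and 1.23 FPKM in wildtype libraries. By point values it was the only tested factor of the list above wildtype in every deleted library relative to Phox2a. That is 1 of 7 (14.3%), against 10.7% of the 169 genes with the same highest and lowest libraries. The counting error of this ratio was not tested. In all, 7 of the 11 factors were tested, with 4 positive and 3 negative differences and a median of 0.26, and 4 were too low to test.

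Of the 12 genes of catecholamine synthesis, storage and uptake, 6 had deleted replicate 3 and wildtype replicate 1 highest: Ddc, which makes dopamine, the vesicular transporters Slc18a1 and Slc18a2, the noradrenaline transporter Slc6a2, the vesicle cytochrome Cyb561 and the oxidase Maoa. Slc6a2 was at 0.174, 1.82 and 5.18 FPKM in deleted libraries, against 5.30, 1.57, 0.356 and 0.135 FPKM in wildtype libraries. Differences were positive for 8 genes and negative for 4 (median 0.11, -0.50 within BI, 0.89 within BM). Pnmt, which turns noradrenaline into adrenaline, did not follow them. It was at 3.33, 0.554 and 1.68 FPKM in deleted libraries, against 4.27, 2.57, 2.41 and 7.76 FPKM in wildtype libraries (log2 difference -0.89, limma adjusted p = 0.795), highest in wildtype replicate 4, where Th and Dbh were low.

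Neuroendocrine granule genes had the largest median of these lists, 0.81 over 9 tested genes (7 positive, 2 negative; -0.13 within BI and 1.74 within BM). It was 0.33 without deleted replicate 3 and 1.14 without deleted replicate 1. Pcsk1, a prohormone convertase, was at 1.14, 2.75 and 1.69 FPKM in deleted libraries, against 1.12, 0.702, 0.115 and 0.0760 FPKM in wildtype libraries (log2 difference 0.95, limma adjusted p = 0.795). By point values its groups did not overlap, a separation found in 2.84% of all genes. Its lowest deleted value, 1.14 FPKM, was close to its highest wildtype value, 1.12 FPKM, and counting error was not tested. Cpe, a carboxypeptidase of the same granules with wide expression in mesenchyme, was at 411 FPKM in deleted replicate 2 and at 113 and 124 FPKM in the other deleted libraries, against 65.0 to 122 FPKM in wildtype libraries. Chga, the chromogranin of chromaffin granules, was at 0.328, 1.82 and 5.83 FPKM in deleted libraries, against 6.99, 3.04, 1.11 and 0.524 FPKM in wildtype libraries, in the order of Phox2a, Th and Dbh. Npy, the cotransmitter of noradrenaline, was at 13.0, 43.0 and 54.7 FPKM in deleted libraries, against 29.9, 12.9, 19.1 and 5.89 FPKM in wildtype libraries.

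Some glial genes had the same highest 2 libraries as 7 of the 8 genes, Sox10 among them. Of 11 tested genes of Schwann cells and satellite glia, 9 differences were positive and 2 negative (median 0.18, -0.41 within BI, 0.64 within BM). None had an unadjusted limma p under 0.05, against 4.49% of all genes. Of the 11 genes, 5 had deleted replicate 3 and wildtype replicate 1 highest, among them Fabp7, Ngfr, Gfra3 and L1cam. Fabp7, a fatty acid carrier of immature glia, was at 7.28, 5.67 and 27.7 FPKM in deleted libraries, against 22.3, 6.13, 4.41 and 3.73 FPKM in wildtype libraries. Erbb3, Mbp, Egr2, Cnp, Pmp22 and Mal did not have that order; Cnp and Mbp, of the smallest p in the list, had log2 differences of -0.19 and 0.26. Among 10 tested genes of the early crest none had that order. Msx1 was at 17.0 ± 11.7 and 5.05 ± 2.71 FPKM in deleted and wildtype libraries and Msx2 at 22.4 ± 18.6 and 4.99 ± 3.03 FPKM in deleted and wildtype libraries (SD; log2 differences 1.49 and 1.8, limma adjusted p = 0.795 for both). They are homeobox genes of dorsal neural tube and mesenchyme. Of the 10 tested they were the 2 with an unadjusted limma p under 0.05, against 3.29% of all genes in that direction.

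Of 19 tested ligands and receptors of the neurotrophin and GDNF families, which keep sympathetic neurons alive and guide their axons, 6 had the same highest 2 libraries, among them the receptors Ngfr, Ret, Gfra1 and Gfra3 and the ligand Artn. Ret and Gfra1 are also genes of the ureteric bud. Nrtn, the ligand neurturin, was lower in every deleted library, at 0.666 to 1.87 FPKM, than in the wildtype libraries, at 1.93 to 6.64 FPKM (log2 difference -0.95, limma adjusted p = 0.795). Such a separation was found in 2.05% of all genes. The list as a whole had 11 positive and 8 negative differences and a median of 0.01.

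**Figure D5:**
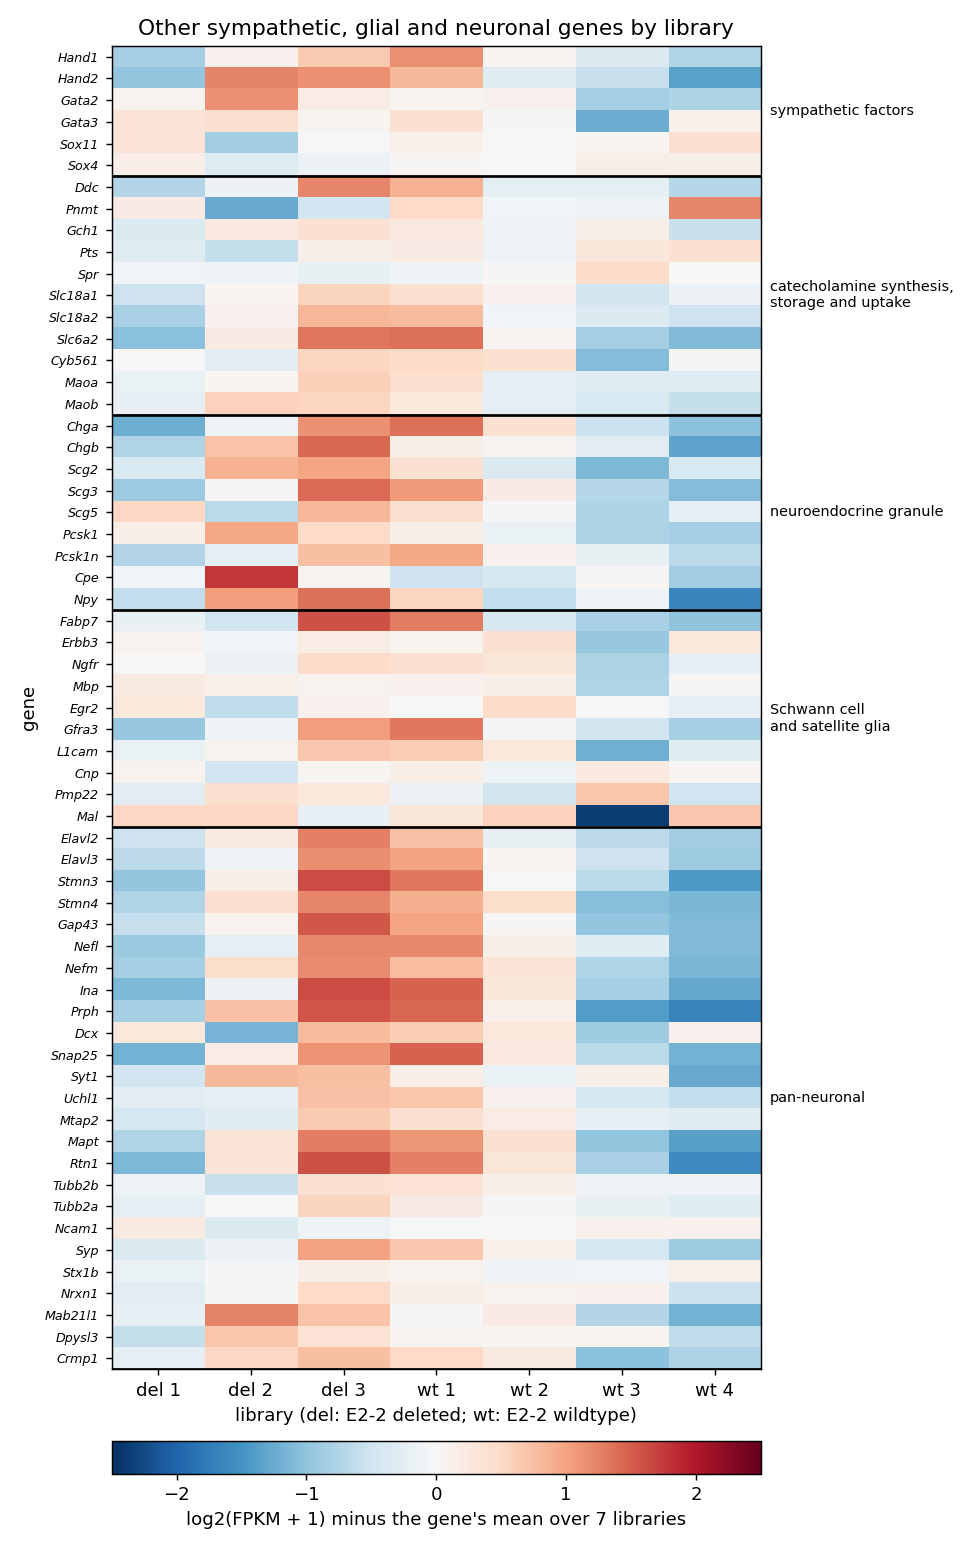
log2(FPKM + 1) minus the gene's mean over the 7 libraries, from blue (low) to red (high), for tested genes of 5 lists, with E2-2 deleted libraries left of E2-2 wildtype libraries. The columns of deleted replicate 3 and wildtype replicate 1 are red over most of the pan-neuronal block, in 19 of 25 genes as the highest 2 libraries, and the pattern is patchier in the other blocks.

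Markers of other cell types had this order in a smaller share of genes. Of 76 tested markers in 13 lists, 11 (14.5%) had deleted replicate 3 and wildtype replicate 1 as the highest 2 libraries. Globins were among them: 3 of 4 tested erythroid genes had that order, and the 7 erythroid genes summed to 118, 9.36 and 537 FPKM in deleted libraries, against 236, 94.4, 59.4 and 135 FPKM in wildtype libraries. In the endothelial list 6 of 8 genes were negative within BI and positive within BM, as the 8 genes were, against 30.1% of all genes. Only 1 of the 8 endothelial genes had deleted replicate 3 and wildtype replicate 1 highest. Summed levels of that list were 283 to 413 FPKM in deleted and 202 to 468 FPKM in wildtype libraries. The part of blood and vessel content in the levels of the 8 genes was not tested. In the macrophage list 2 of 8 had the highest libraries in common with the 8 genes (sums of 128 to 257 and 104 to 207 FPKM in deleted and wildtype libraries).

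None of 13 marker genes of the central nervous system reached a mean of 1 FPKM, and the list summed to 2.13 to 4.31 FPKM in deleted and 0.539 to 2.31 FPKM in wildtype libraries. Gad1 and Dlx2 made up most of the sum in the deleted libraries. Gad1, an enzyme that makes GABA, was at 1.42, 1.42 and 1.05 FPKM in deleted libraries, against 0.517, 1.37, 0.252 and 0.653 FPKM in wildtype libraries. Dlx2, a homeobox factor of the forebrain and of cranial crest, was at 0.508, 2.53 and 1.22 FPKM in deleted libraries, against 0.711, 0.596, 0.0672 and 0.0194 FPKM in wildtype libraries. Of the rest Dlx1 did not exceed 0.413 FPKM in deleted or 0.489 FPKM in wildtype libraries, the others were lower, and Nkx2-2 and Mnx1 were listed at 0 in every library. Of 11 sensory neuron genes 4 were tested; Neurog1 was listed at 0 in every library, and Pou4f1 was at most 0.0903 FPKM in deleted and 0.0568 FPKM in wildtype libraries. Calca, which encodes a sensory neuropeptide, was higher in every deleted library, at 2.11 to 5.66 FPKM against 0.299 to 1.16 FPKM in wildtype libraries (log2 difference 1.31, limma adjusted p = 0.795). Such a separation was found in 2.84% of all genes. Chat, the defining gene of cholinergic neurons, was at 0.0643 to 0.312 FPKM in deleted and at 0 to 0.208 FPKM in wildtype libraries. Other genes of that list were higher. The acetylcholine and choline transporters Slc18a3 and Slc5a7 were at 0.542 to 1.62 and 0.523 to 1.71 FPKM in deleted libraries, against 0.139 to 1.16 and 0.115 to 1.14 FPKM in wildtype libraries. Vip, a neuropeptide of cholinergic and enteric neurons, was at 1.97, 4.72 and 5.12 FPKM in deleted libraries, against 4.07, 5.37, 0.404 and 1.40 FPKM in wildtype libraries. These are levels like those of Sox10 and Th, and their part in the levels of the 8 genes was not tested.

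Most genes of the adrenal and gonad steroid list were low, and 5 of the 13 were tested. The enzyme Cyp17a1 did not exceed 0.0339 FPKM in any deleted library or 0.0269 FPKM in any wildtype library. In deleted and wildtype libraries Nr5a1 did not exceed 0.455 and 0.216 FPKM, Cyp11a1 0.494 and 0.256 FPKM, and Cyp11b1 0.559 and 0.181 FPKM. Likewise Cyp21a1 did not exceed 0.0646 and 0.0768 FPKM, and Hsd3b1 0.0989 and 0.347 FPKM. Star and Mc2r were among the 5 tested. Star, which carries cholesterol into mitochondria, was at 2.37, 2.02 and 2.60 FPKM in deleted libraries, against 1.99, 1.82, 1.38 and 2.32 FPKM in wildtype libraries. Mc2r, the receptor of adrenocorticotropic hormone, was at 3.41, 1.34 and 1.64 FPKM in deleted libraries, against 1.87, 0.979, 1.26 and 2.45 FPKM in wildtype libraries. Its highest library was deleted replicate 1, where Phox2a and Th were lowest.

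Melanocytes, another derivative of the crest, had a different pattern from the sympathetic and glial genes. All 9 tested melanocyte genes had positive differences, 7 of them with an unadjusted limma p under 0.05 (3.29% of all genes in that direction) and 0 with an adjusted p under 0.05. Their median was 1.33, with 0.89 within BI and 2.05 within BM, so the sign was the same in both prefixes. None had deleted replicate 3 and wildtype replicate 1 as the highest 2 libraries. The list summed to 63.6, 124 and 148 FPKM in deleted libraries, against 55.1, 41.0, 20.1 and 29.4 FPKM in wildtype libraries.

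The genes most like the 8 were ranked by Pearson r of log2(FPKM + 1), as a description over 7 libraries. The 8 genes nearest to the mean profile of Phox2a, Th and Dbh were Chrna7, Chga, Snap25, Hand1, Vstm2l, Slc18a2, Pcsk1n and Gfra3 (r of 0.97 to 1.00). Chrna7, a nicotinic receptor subunit of ganglia, was at 0.877, 1.83 and 2.59 FPKM in deleted libraries, against 2.84, 2.00, 1.31 and 1.00 FPKM in wildtype libraries. Nearest to Sox10 were Syt4, Gap43, Snhg11, Ache, Spock3, Kcnj2, Pcdhac2 and Napb (0.98 to 0.99), none of them from the glial list. Syt4, a synaptotagmin, was at 3.94, 6.56 and 14.3 FPKM in deleted libraries, against 8.41, 4.67, 2.47 and 2.52 FPKM in wildtype libraries. Nearest to Isl1 were Spock3, Ache, Pcdhac2, Prph, Gap43, Mapt, Syt11 and Ncam2 (0.98 to 1.00), 4 of which were also near Sox10. For the mean profile of Elavl4, Tubb3 and Stmn2 they were Add2, Trim36, Fam57b, Dpysl5, Resp18, Mapk8ip2, Col5a3 and Uchl1 (0.98 to 0.99). This mean profile joins unlike genes, since Elavl4 had r of 0.05 with Tubb3 and 0.10 with Stmn2. Nearness to Elavl4, Tubb3 or Stmn2 alone was not ranked.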

How the data were processed

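Poly-A RNA of 7 libraries, prepared by the Illumina TruSeq RNA protocol (per the labels), was measured by sequencing. For each library the authors deposited a gene table of FPKM values with their bounds, per the file headers. The submitters' processing notes name Cufflinks 2.0.2, TopHat2 2.0.4 and CASAVA 1.8.2, without roles. Neither build nor annotation is given in the sources used here; among entries that share the end of a GRCm38 gene, 167 of 226 start 1 base below it, so table starts were raised by 1 and no build is named for them. Scaling to FPKM takes out most of the depth, but low genes in shallow libraries are less precise.

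Entries of a symbol were summed, 25 symbols turned into dates in 1 table were restored, 203 symbols with a failed or low-data status and 669 small RNAs were left out, and genes with a mean of at least 1 FPKM were kept. Values are log2(FPKM + 1), which understates changes of low genes. Genotypes were tested in limma 3.58.1 under R 4.3.3 (2-sided, mean-variance trend, p adjusted by Benjamini-Hochberg over 13469 genes, threshold 0.05) and by exact 2-sided permutation over 35 splits. Correlations used exact permutation of 5040 orders. Fragments were inferred from the width w between an FPKM and its upper bound, as (2 FPKM / w) squared; 79.5% to 80.4% of those under 300 at single-start entries lay within 0.05 of a whole number. Alternatives covered the pseudocount, filters, scaling, trend, weights, prefix and each library left out.

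The 8 genes, and the lists of other genes, were chosen with earlier results of these data known. Genes named from a list are those of smallest limma p, defining markers, or, by their library order or ratio, chosen after their values were seen. Genes named for likeness are the 8 of highest r, with predicted genes and clones passed over. Promoter windows come from RefSeq. Some genes of the lists are counted but not reported by name here.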

Additional observations from a re-analysis of the deposited data

Results flagged for a closer look

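For Phox2a, Th and Dbh the genotype difference had opposite signs in the libraries whose names begin with BI and in those whose names begin with BM. By point values deleted and wildtype libraries did not overlap in either, an arrangement found in 6.31% of all genes. Within BI the 95% Poisson intervals of deleted replicate 2 and wildtype replicate 2 overlapped for all 3 genes. They were 2.01 to 3.31 and 2.89 to 4.59 FPKM for Phox2a, 1.67 to 2.80 and 2.17 to 3.58 FPKM for Th, and 6.88 to 8.69 and 7.97 to 10.1 FPKM for Dbh. The log2 difference, E2-2 deleted minus E2-2 wildtype, was -1.30 within BI and 1.74 within BM for Phox2a, -1.38 and 1.20 for Th, and -1.85 and 2.66 for Dbh. A limma interaction of genotype and prefix gave adjusted p-values of 0.745, 0.992 and 0.756 for Phox2a, Th and Dbh, and 0 of 13469 genes passed. It was added after the opposite signs had been seen and BM holds 1 deleted library, the highest or second highest for all 3 genes, so these p-values do not show whether the prefixes differ. No sample met the test for a single outlying library in the groups of 4.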

How the results depend on the processing

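Over 117 alternative fits of the 8 genes, 0 had a limma adjusted p under 0.05 and the smallest was 0.489; 103 kept the sign and 14 turned it. Leaving out 1 library at a time gave log2 differences of -0.59 to 0.45 for Phox2a, -0.78 to 0.27 for Th, -0.79 to 0.92 for Dbh, 0.30 to 1.08 for Isl1, 0.22 to 0.98 for Sox10, -0.60 to 0.14 for Elavl4, 0.07 to 1.27 for Tubb3 and 0.03 to 1.49 for Stmn2. The lowest value came without E2-2 deleted replicate 3 in all 8. The sign of Phox2a turned with a weight per library (0.23), and that of Dbh with a pseudocount of 0.1 (-0.064), quantile normalization (-0.014) and prefix as a term (-0.042); the cause was not tested. The values that left the spread between replicates were those within BI and BM: -1.30 and 1.74 for Phox2a, -1.38 and 1.20 for Th, -1.85 and 2.66 for Dbh, -0.45 and 2.27 for Isl1, -0.37 and 2.03 for Sox10, -0.93 and 2.81 for Tubb3, -1.13 and 3.41 for Stmn2, and 0.33 within BM for Elavl4. The number of genes past the adjusted threshold was 0, and 1 with no filter and 1 with a weight per library, none of them among the 8. Of 171 list medians recomputed, including those without the 2 highest libraries, which were chosen after seeing the data, 1 moved by more than the spread between replicates: catecholamine genes, -0.26 without deleted replicate 3. Without that library the medians of sympathetic factors, pan-neuronal, early crest and neurotrophin genes also turned negative (-0.15, -0.11, -0.048 and -0.078), that of Schwann and satellite glia was 0.0035 and that of neuroendocrine granule genes 0.33. With a pseudocount of 0.1, 15 of the 28 pairs of genes passed for Pearson r, against 19. Keeping only the most abundant entry of a symbol changes nothing here, since each gene has 1 entry. No paired analysis was possible because replicate numbers were given in deposit order and only name a library; libraries numbered alike share a name prefix, and prefix was fitted as a term. Depth limits Th in deleted replicate 1 and Sox10 in wildtype replicates 3 and 4, with 6, 12 and 14 inferred fragments.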
